A study of Drosophila melanogaster with 4 samples.

Results

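Genes for 10 insulator and promoter architecture proteins of Drosophila melanogaster were examined for occupancy by CG1233-GFP: Cp190, Chro, Dref, M1BP, BEAF-32, CTCF, su(Hw), mod(mdg4), pita and Ibf1. They were chosen by name, as 10 of the 13945 protein-coding genes annotated on the 6 main chromosome arms. Their promoters included some of the strongest CG1233-GFP peaks in the genome. Chro ranked 25th and Cp190 93rd among the 5211 peaks of the authors' optimal list, which an irreproducible discovery rate step drew from all replicates, and M1BP and Dref also ranked within the first 500. BEAF-32, CTCF, mod(mdg4) and su(Hw) had weaker promoter peaks, and pita and Ibf1 had none in the optimal list.

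The data were chromatin immunoprecipitation sequencing (ChIP-seq) peak calls from whole embryos of mixed sex, 0 to 24 h old. All came from 1 transgenic line, CG1233-GFP, in which GFP is fused to the C terminus of CG1233, and formed 1 group of 4 biological replicates with no second genotype or treatment. Every tissue of the embryo and all embryonic ages were pooled, so a call cannot be assigned to a cell type or stage. The description field names the libraries as input controls and the antibody field names CG1233. The values rest on reading them as ChIP, and the choice cannot be settled from the peak lists. Sequencing depth is unknown, because read counts are not part of the peak lists. Calls with a −log10 q above 2 numbered 6697, 4575, 10424 and 5400 in replicates 1 to 4, of 30000 in each list.

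Insulator proteins bind boundaries between chromosomal domains and can block communication between an enhancer and a promoter. In Drosophila, DNA-binding members such as CTCF, Su(Hw), BEAF-32, Pita and Ibf1 recruit cofactors such as CP190, and many of their sites lie at promoters of closely spaced, broadly expressed genes. Dref and M1BP are sequence-specific factors of the core promoters of such genes, where they bind the DNA replication-related element (DRE) and Motif 1. The question asked of the lists was whether and where CG1233-GFP was called at the genes that encode these proteins.

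Genes were scored for optimal summits at most 500 bp from any annotated transcription start site (TSS). By that count 8 of the 10 genes had a promoter peak, beside 19.9% of all protein-coding genes. Each call was ranked by its deposited signal within its own list, with rank 1 the strongest. A replicate was said to hold a peak when 1 of its strongest 5211 calls had its summit inside the peak. All 4 replicates held the strongest promoter peak of 6 genes (Cp190, Chro, Dref, M1BP, BEAF-32 and CTCF), beside 9.90% of all protein-coding genes. Genes with a promoter summit among a replicate's own strongest 5211 calls numbered 7, 8, 7 and 7 of 10 in replicates 1 to 4 (7.25 ± 0.5, SD, n = 4), beside 19.7%, 19.2%, 20.2% and 19.8% of all protein-coding genes. Replicates 1 and 3 lacked su(Hw), and replicate 4 lacked mod(mdg4). In the full pooled list of 30000 calls, which includes weak background calls, all 10 genes had a promoter summit, beside 47.8% of all protein-coding genes.

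Over the 8 genes with a peak, the median of the best promoter rank was 995.5 (quartiles 194.2 and 3373). Over all 2779 protein-coding genes with a peak it was 2160 (quartiles 917 and 3524). Ranks of 500 or better belonged to 4 of the 8 genes, and to 403 of the 2779 (14.5%). The genes were picked by name with these lists already known, and no test was made of the difference.

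**Figure D1:**
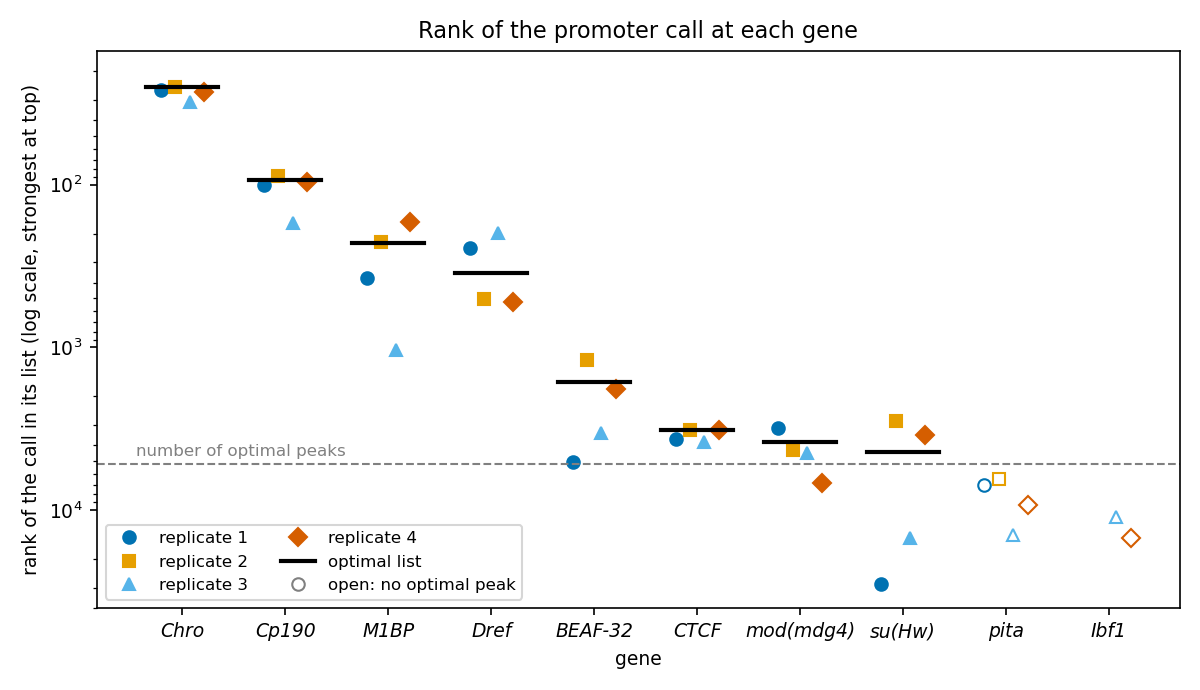
Rank of the CG1233-GFP promoter call of each gene (horizontal axis) on a log vertical axis with the strongest at the top. Bars are optimal peaks and filled points the strongest call of each replicate inside them. Open points are the strongest replicate call in the promoter window where there was no optimal peak, and the dashed line the number of optimal peaks. Chro lies between 25 and 31 throughout, while su(Hw) spans 2823 to 28623 over the replicates.

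Chro encodes Chromator, a chromodomain protein of polytene interbands that occurs with BEAF-32 and CP190 at many promoters. It had the strongest promoter peak of the 10 genes, at chr3L:22878715-22879093 (dm6), which was the 14th strongest of 2424 promoter peaks in the optimal list. Its rank was 26, 25, 31 and 27 in replicates 1 to 4 (27.25 ± 2.63, SD, n = 4), so the replicates lay close together. The optimal summit at position 22878905 lay 79 bp downstream of the 5′-most TSS, in the 5′ untranslated region (UTR) of the gene. The replicate summits lay 64, 96, 105 and 91 bp downstream (89 ± 17.6 bp, SD, n = 4), all on the same side of the TSS. The next annotated TSS of Chro lay further downstream, 137 bp past the optimal summit. Chro stands head-to-head with Ssl1, which encodes a subunit of the general transcription factor TFIIH, with 105 bp between the opposite TSSs. The summit lay outside that gap on the Chro side, 184 bp upstream of the Ssl1 TSS. The peak counts for both genes. The 30 bases at the summit are shown because they hold a copy of CGATA, the core of the word bound by BEAF-32. Capitals mark the word, read here as TATCG on the strand of the gene (chr3L:22878886-22878915, minus strand, dm6).
Chro summit: actgcagttagtttaaagcTATCGacaggc

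Cp190 encodes the zinc-finger and BTB-domain cofactor that several insulator proteins recruit. Its promoter peak, chr3R:15275197-15275562, ranked 93rd among the optimal peaks and 64th among promoter peaks. The peak ranked 100, 89, 172 and 96 in replicates 1 to 4 (114.2 ± 38.8, SD, n = 4), with replicate 3 apart from the other three. The summit at 15275354 lay 113 bp upstream of the TSS, inside the gap of 281 bp between Cp190 and the divergent gene CG4338, and 168 bp upstream of the CG4338 TSS. The strongest replicate summits lay 92, 145, 170 and 103 bp upstream of the Cp190 TSS, all inside the gap. A second, weaker call of replicate 1 (rank 1097) had its summit inside the peak but outside the gap. It lay at -296 bp from the Cp190 TSS, past the CG4338 TSS. The sequence from the gap into the start of Cp190 is shown because a DRE word, TATCGATA, spans the TSS at positions -4 to 3. Capitals mark this word and a copy of CGATA beside it (chr3R:15275221-15275391, minus strand, dm6). The centre of the DRE word lay 112 bp from the summit, away from the strongest point of the peak.
Cp190 TSS to summit: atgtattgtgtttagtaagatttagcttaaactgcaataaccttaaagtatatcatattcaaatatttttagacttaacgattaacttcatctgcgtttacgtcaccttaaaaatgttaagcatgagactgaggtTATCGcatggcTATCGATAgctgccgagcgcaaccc

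mod(mdg4) encodes a large family of BTB-domain proteins, 1 of which is the partner of Su(Hw) at insulators of the gypsy type. Its mRNAs are made by trans-splicing of shared 5′ exons to variable 3′ exons, and some of the 3′ exons are transcribed from separate starts and from the opposite strand. The gene spans 26556 bp on the minus strand (chr3R:21350846-21377401) with 22 annotated transcripts and 1 annotated TSS. At that TSS the optimal peak ranked 3805, with its summit 119 bp downstream. Its replicate ranks were 3113, 4254, 4461 and 6877 (4676 ± 1580, SD, n = 4), and the weakest, in replicate 4, fell outside the strongest 5211 calls. A DRE word lay at positions -54 to -47 from the TSS, 170 bp from the summit. The sequence is shown with this word and a copy of CGATA in capitals (chr3R:21377381-21377501, minus strand, dm6).
mod(mdg4) upstream: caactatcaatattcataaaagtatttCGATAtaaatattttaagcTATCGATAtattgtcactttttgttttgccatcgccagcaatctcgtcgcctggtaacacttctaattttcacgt

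The strongest peak of mod(mdg4) lay inside the gene and not at its start. It ranked 267 in the optimal list, against 3805 for the peak at the TSS, and was called at chr3R:21365368-21365616, with the summit 11935 bp into the gene. The rank in replicates 1 to 4 was 329, 284, 793 and 205 (402.8 ± 265, SD, n = 4), and all 4 held it. The strongest replicate summits lay 12024, 12015, 12020 and 11934 bp into the gene, so only replicate 4 lay close to the optimal summit. Replicates 1, 2 and 3 each had a second, weaker call inside the peak on the other side of the optimal summit. These calls lay 11818, 11811 and 11814 bp into the gene and ranked 2761, 2096 and 7303. A body summit here is one inside the gene and more than 500 bp from each of its own TSSs. Of the 10 genes, only mod(mdg4) had an optimal summit in its body, beside 8.72% of all protein-coding genes. Among the 764 protein-coding genes at least as long as mod(mdg4), 51.2% had an optimal summit in the body. The annotation lists 23 precursor genes, named pre-mod(mdg4), for the variable 3′ exons. They share 7 distinct start sites, 4 on the strand of mod(mdg4) and 3 on the opposite strand. The optimal summit of the peak ranked 267 lay 22 bp downstream of a start of pre-mod(mdg4)-E that stood 121 bp from a divergent precursor TSS. The strongest summits of replicates 1, 2 and 3 lay 111, 102 and 107 bp downstream of that start. They were nearer to another start of pre-mod(mdg4)-E, shared with pre-mod(mdg4)-AB and pre-mod(mdg4)-C, at -87, -96 and -91 bp from it (negative upstream). The sequence from the summit to the divergent start is shown because the strongest optimal peak of the locus has its summit at its end, and capitals mark the 11 bases centred on the summit (chr3R:21365460-21365608, minus strand, dm6).
pre-mod(mdg4) gap: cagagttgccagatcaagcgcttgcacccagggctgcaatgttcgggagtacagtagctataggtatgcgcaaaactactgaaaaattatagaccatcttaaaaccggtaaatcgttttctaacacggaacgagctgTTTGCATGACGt

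A further optimal peak in the body, chr3R:21373393-21373816, ranked 2690, with its summit 3796 bp into the gene and 30 bp upstream of the start shared by pre-mod(mdg4)-AA, pre-mod(mdg4)-N and pre-mod(mdg4)-O. The replicate ranks of that peak were 2389, 2852, 11259 and 2509, so replicate 3 stood far below the others. Together these 2 peaks put an optimal summit within 500 bp of 4 of the 7 precursor start sites. Of these sites, only the start shared by pre-mod(mdg4)-AA, pre-mod(mdg4)-N and pre-mod(mdg4)-O lay at the peak ranked 2690. The others form 1 cluster, covered by the single peak ranked 267, and no share over all annotated start sites was computed for comparison. The start site shared by 8 precursors, 17633 bp into the gene, had calls within 500 bp in replicates 1 and 3 alone, at ranks 13582 and 6934. Just past that limit, the pooled list and replicate 2 had calls 18159 and 18209 bp into the gene, at ranks 14277 and 24179. The nearness of both body peaks to precursor starts was noticed after the values had been seen. An additional optimal peak, ranked 1967, lay 654 bp beyond the 3′ end of mod(mdg4), and its nearest TSS was that of aus. Its replicate ranks were 1708, 2555, 1395 and 2512, and all 4 replicates held it.

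**Figure D2:**
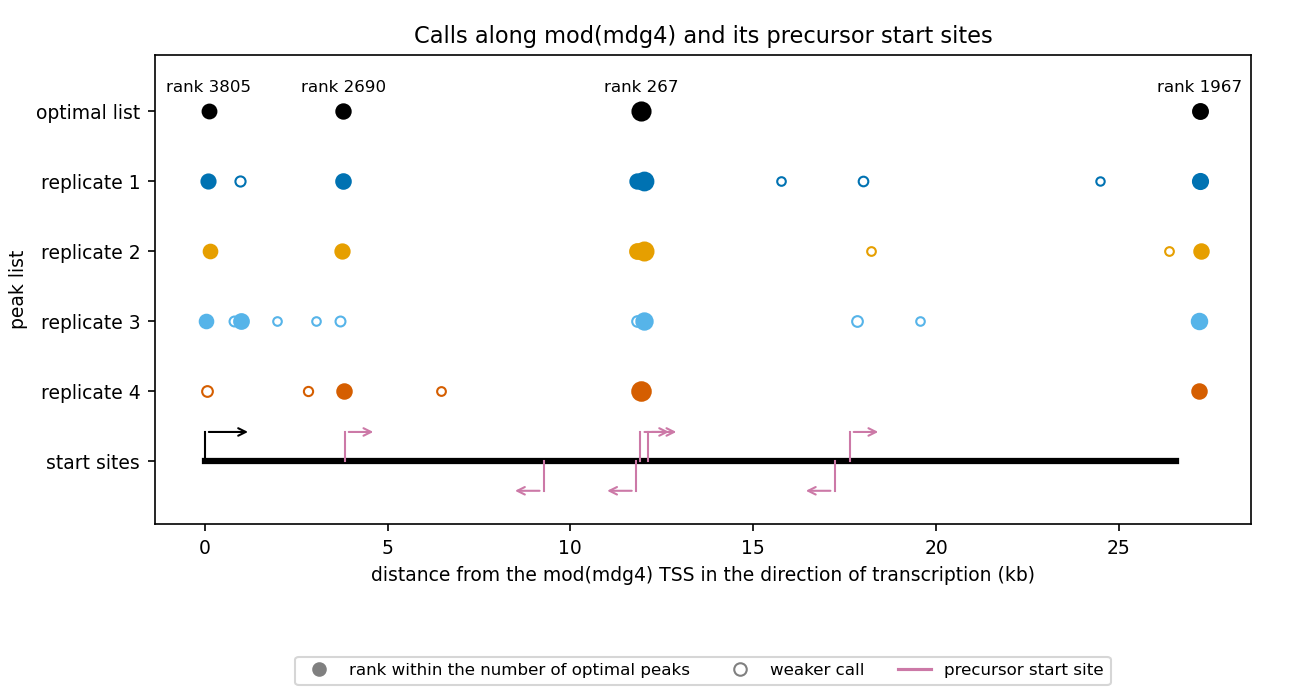
Calls along mod(mdg4) in the optimal and 4 replicate lists (rows), by distance from its TSS in kb, with larger points for stronger calls, filled points for ranks up to 5211 and open points for weaker calls. Arrows mark the start of mod(mdg4) (black) and the precursor start sites (pink). The call ranked 267 in the optimal list, 11935 bp into the gene, is the strongest of the locus in that list.

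Dref encodes the factor that binds the DRE. Its promoter peak, chr2L:9967188-9967441, ranked 347th in the optimal list, and its replicate ranks were 245, 503, 197 and 529 (368.5 ± 172, SD, n = 4). Replicates 1 and 3 were stronger here than replicates 2 and 4, whereas M1BP showed the opposite order. Dref stands head-to-head with RpL13, which encodes a protein of the large ribosomal subunit, with only 84 bp between the TSSs. The summit at 9967291 lay in that gap, 62 bp upstream of the Dref TSS and 22 bp upstream of the RpL13 TSS. The replicate summits lay 65, 36, 80 and 72 bp upstream of Dref (63.2 ± 19.2 bp, SD, n = 4), so all 4 fell between the genes. The peak counts for both genes, and its position does not tell them apart. The whole gap is shown, and capitals mark its copy of CGATA, read as TATCG on this strand (chr2L:9967230-9967312, minus strand, dm6).
Dref-RpL13 gap: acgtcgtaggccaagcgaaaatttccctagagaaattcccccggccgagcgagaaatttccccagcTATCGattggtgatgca

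M1BP encodes the zinc-finger protein that binds Motif 1 at promoters with paused RNA polymerase II. Its peak, chr3R:8731914-8732127, ranked 228th in the optimal list and 153rd among promoter peaks. The replicate ranks were 375, 225, 1040 and 170 (452.5 ± 401, SD, n = 4), all of them held and replicate 3 the weakest. The summit at 8731989 lay 291 bp upstream of the M1BP TSS and 102 bp upstream of the divergent gene CG8202, in a gap of 393 bp. Replicate summits lay 300, 291, 315 and 294 bp upstream of M1BP, a span of 24 bp. Over the 2046 optimal promoter peaks with a summit from every replicate, the median span was 67 bp (quartiles 37 and 119 bp). All 4 replicates placed the summit nearer to CG8202 than to M1BP. The 101 bases around the summit are shown with the 11 central bases in capitals (chr3R:8731939-8732039, minus strand, dm6).
M1BP summit: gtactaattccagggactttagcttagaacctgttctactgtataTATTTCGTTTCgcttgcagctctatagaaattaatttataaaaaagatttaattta

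CTCF encodes the fly homologue of the vertebrate insulator protein. Its peak, chr3L:7356395-7356818, ranked 3229th in the optimal list. The replicate ranks of 3644, 3216, 3807 and 3214 (3470 ± 302, SD, n = 4) lay close together. The optimal summit lay 106 bp downstream of the TSS. The strongest replicate summits lay 23, 107, 30 and 178 bp downstream, a span of 155 bp. A second, weaker call of replicate 4 (rank 4649) lay inside the peak on the upstream side, at -38 bp from the TSS. No divergent TSS lay within 1000 bp. A DRE word lay at positions -21 to -14 from the TSS and 124 bp from the summit, and the sequence around it is shown with the word in capitals (chr3L:7356693-7356793, minus strand, dm6).
CTCF upstream: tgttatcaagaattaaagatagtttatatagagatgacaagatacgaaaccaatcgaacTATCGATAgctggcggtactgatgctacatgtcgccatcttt

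su(Hw) encodes the zinc-finger protein of the gypsy insulator. The optimal peak, chr3R:14308674-14309097, ranked 4393rd, and the replicates differed most widely at this gene among the 8. The peak ranked 2823 in replicate 2 and 3444 in replicate 4, against 28623 in replicate 1 and 14867 in replicate 3. Only replicates 2 and 4 held it. In replicates 1 and 3 the strongest call in the promoter window lay elsewhere, at rank 16452 and 301 bp downstream of the TSS in replicate 1, and at rank 5386 and 421 bp downstream in replicate 3. The optimal summit at 14308886 lay 297 bp upstream of su(Hw) and 203 bp upstream of Polr2I, which encodes a subunit of RNA polymerase II, in a gap of 500 bp between the genes. The bases around the summit are shown with the 11 central bases in capitals (chr3R:14308836-14308936, minus strand, dm6).
su(Hw) summit: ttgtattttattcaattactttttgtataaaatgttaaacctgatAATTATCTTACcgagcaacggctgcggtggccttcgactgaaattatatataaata

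BEAF-32, a gene on arm 2R, encodes the boundary element-associated factor, which binds CGATA clusters near promoters. It has 3 annotated TSSs. The stronger of its 2 promoter peaks, chr2R:14770205-14770628, ranked 1644th, with its summit 52 bp upstream of the 5′-most TSS. The replicate ranks were 5058, 1201, 3365 and 1799 (2856 ± 1730, SD, n = 4), and all 4 replicates held it. Replicate summits lay 47, 68, 75 and 52 bp upstream, a span of 28 bp. The peaks therefore agreed in position while their ranks differed. The weaker peak, chr2R:14771057-14771480, ranked 4512th and lay 32 bp upstream of the TSS at 14771301. Its replicate ranks were 5300, 3722, 3748 and 6095, so replicates 2 and 3 held it. An antisense noncoding gene, asRNA:CR42254, has a start 6 bp from that internal TSS. The summit of the stronger peak lay 147 bp upstream of another start of asRNA:CR42254. It thus fell between that start and the 5′-most BEAF-32 TSS. ChIP signal carries no strand, so neither peak can be assigned to either gene by position.

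Neither pita nor Ibf1 had a promoter peak in the optimal list. pita, on arm 2R, encodes a zinc-finger insulator protein that recruits CP190. Its strongest pooled promoter call ranked 7137, with a −log10 q of 1.68, 316 bp downstream of the TSS at 23551551. The strongest promoter calls of replicates 1, 2 and 3 ranked 7058, 6475 and 14177 and lay 244, 345 and 267 bp downstream of the same TSS. In replicate 4 the strongest call ranked 9329 and lay 182 bp downstream of the 5′-most TSS, at 23554712, and its call near the internal TSS ranked 18264. All of these were outside the strongest 5211 calls. An optimal peak ranked 2131, 894 bp beyond the 3′ end of pita, lay at the promoters of wmd and levy and counts for both.

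Ibf1 encodes a BED-finger protein that works with Ibf2 to bring CP190 to chromatin, and the 2 genes stand head-to-head with 463 bp between their TSSs. The pooled list had a call of rank 27102 in the Ibf1 window, with a −log10 q of 0.17. Replicates 1 and 2 had no call there. Replicate 3 had a call of rank 11101 at 139 bp downstream of the TSS, and replicate 4 had a call of rank 14887 at 465 bp upstream. An optimal peak ranked 5090 lay 183 bp beyond the 3′ end of Ibf1, at the promoter of ATP6AP2. Apart from mod(mdg4), no gene of the 10 had an optimal summit inside it and more than 500 bp from its own TSSs.

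**Figure D3:**
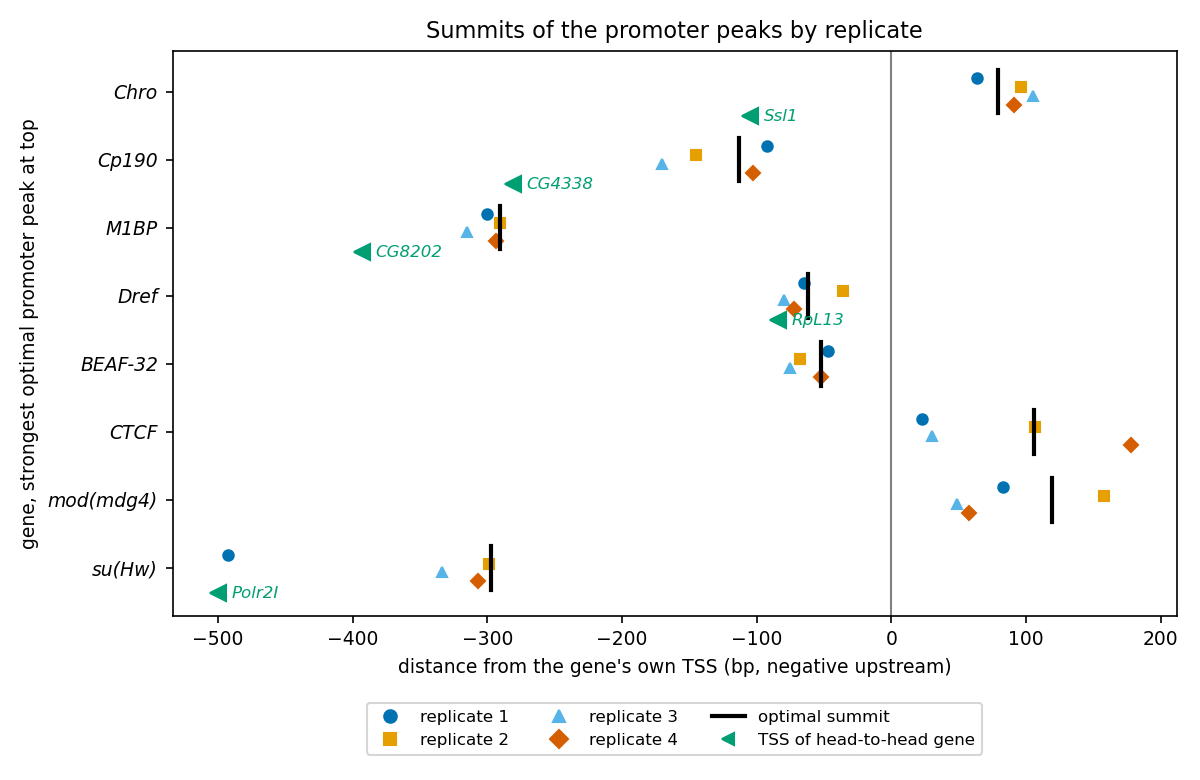
Distance in bp, negative upstream, of the optimal summit (black line) and replicate summits (coloured points) from the own TSS of each gene. Coloured points are the strongest call of each of the 4 replicates inside the peak, and green triangles the TSS of the protein-coding head-to-head gene. Of the 8 optimal summits, 5 lie upstream, and those of Dref, M1BP and su(Hw) lie nearer to the TSS of the divergent neighbour.

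Of the 10 genes, 6 stood head-to-head with a protein-coding gene within 1000 bp, and 5 of these 6 had a promoter peak (Cp190, Chro, Dref, M1BP and su(Hw)). Among all 5052 protein-coding genes in that arrangement, 34.0% had a promoter peak. Head-to-head genes made up 36.2% of all protein-coding genes. Among these pairs of protein-coding genes, the optimal summit lay between the opposite TSSs at Cp190, Dref, M1BP and su(Hw). It lay nearer to the neighbour at Dref, M1BP and su(Hw). The median distance of the 8 strongest summits from the own TSS was -57 bp (quartiles -157.5 and 85.75 bp). Measured from the nearest TSS of any gene, the same 8 summits had a median of -37 bp (quartiles -104.8 and 85.75 bp), with 5 of the 8 upstream. By that measure all 2424 optimal promoter summits had a median of -100.5 bp (quartiles -200 and -12 bp), with 77.5% upstream.

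Short words bound by factors of this class were looked for on either strand, at most 50 bp from the 8 summits. The DRE word TATCGATA was at 0 of 8 summits, against 2.60% of all 2424 promoter summits. CGATA, which is contained in the DRE word, was at 2 summits (Chro and Dref), against 18.5%. The Motif 1 word GGTCACACT, the Su(Hw) word TGCATA and the GAGA-factor word GAGAG were at 0 of 8, against 1.16%, 7.26% and 9.53%. In the window from 250 bp before to 50 bp after the 5′-most TSS, the DRE word occurred in 6 of the 10 genes (Cp190, BEAF-32, CTCF, mod(mdg4), pita and Ibf1), against 9.37% of 13945 genes. CGATA occurred there in 7 genes, against 47.5%. TGCATA occurred in 3 genes (M1BP, pita and Ibf1), against 15.4%, and GGTCACACT in su(Hw) alone, against 6.05%. GAGAG occurred in 0 of the 10 windows, against 29.8% of all. Of the 6 genes with the DRE word 4 had a promoter peak, and of the 4 genes without it all 4 did. Over all protein-coding genes, 30.1% of the 1306 with the word and 18.9% of the 12639 without it had a promoter peak. The median ranks of these peaks were 2633 with the word and 2108 without it. A word match is a description of the letters and not of a bound site. GC content within 50 bp of the strongest summits ran from 21.8% at Cp190 to 47.5% at Dref, beside a median of 33.7% (quartiles 27.7% and 43.6%) over all promoter summits.

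Replicates 1 and 3 tended to place the same peaks lower than replicates 2 and 4. The log2 ratio of the geometric mean rank in replicates 1 and 3 over that in replicates 2 and 4 had a median of 0.214 over 4587 optimal peaks and was above 0 at 2706 of them. It was 2.73 at su(Hw), 1.67 at M1BP, 1.49 at the stronger BEAF-32 peak, 0.505 at Cp190, 0.212 at CTCF and 0.128 at Chro. It was -0.537 at mod(mdg4) and -1.23 at Dref, where replicates 1 and 3 ranked the peak higher. The part of depth or library quality in these differences was not tested.

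A further 26 genes of insulator, cohesin, condensin and promoter architecture proteins were listed for comparison, and 24 matched the annotation. A promoter peak was present at 8 of the 10 genes and at 10 of these 24 (41.7%), beside 19.9% of all protein-coding genes. A peak held by all 4 replicates was present at 6 of the 10 and at 5 of the 24, beside 9.90% of all protein-coding genes. The strongest were row (rank 763), Zaf1 (826), Trl (1036), which encodes the GAGA factor, and pzg (1376), which encodes the Chromator partner Z4. JIL-1, the histone H3 kinase of interbands, ranked 2291 and was held by all 4 replicates. Cap-H2, a condensin II subunit, ranked 2143 and was held by 3 replicates. Clamp, e(y)2, woc and SMC1 ranked 3712, 4328, 4383 and 4489, and each was held by 1 to 3 replicates. Ibf2, the partner and head-to-head neighbour of Ibf1, was among the listed genes without a promoter peak.

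The protein-coding gene whose ranks in the 4 replicates were nearest to those of each gene was found by the mean absolute difference in log10 rank. For Chro it was PNPase (0.053), for Cp190 CG1792 (0.0608), for Dref bchs (0.0586) and for M1BP sky (0.0292). For BEAF-32 it was CG6225 (0.0374), for CTCF spoon (0.0237), for su(Hw) Pfrx (0.028) and for mod(mdg4) noc (0.029). These are descriptions over 4 lists and carry no statement on shared control.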

How the data were processed

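Peak lists of 4 ChIP-seq replicates, a pooled list and an optimal list were used. Build dm6 and an irreproducible discovery rate step, which gave the optimal list, are named per the file headers and the text deposited with them; the aligner and peak caller are not given in the sources used here. The deposited signal value of each call, whose scale is not stated and differs between lists, was used only to rank calls within a list. The deposited −log10 q-value was printed and used as an alternative order. The 4 replicates shared 1 control alignment set. The lists hold no read counts, so depth and its precision are unknown.

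Summits were assigned to Ensembl 115 TSSs on 6 arms, without transposable elements, with Python 3.11.15, pandas 2.3.3 and numpy 2.4.6, and the assignment was tested on simulated data. The optimal list equalled the strongest 5211 pooled calls, so it is not independent of the replicates. Words were searched in the dm6 genome. No test was run over the genes or between groups, since there is 1 group and the genes were chosen by name. Dixon's critical value was used only to flag single replicate values far from the others.

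The 10 genes and the further list were chosen with earlier results of these data known. Named genes are the 10, their head-to-head or peak-sharing neighbours, listed genes with a peak or in counts of 5 or fewer, and the gene nearest in replicate ranks. Alternatives were promoter windows of 200 and 1000 bp, other TSS rules, the stronger 2605 optimal peaks, each replicate left out, and motif windows of 25 and 100 bp.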

Additional observations from a re-analysis of the deposited data

Results flagged for a closer look

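Of 23 groups of 4 replicate values examined, 3 held a replicate far from the other three, beyond Dixon's 95% critical value. Chance flags about 1 in 20 groups of normally distributed values. The 3 flagged groups are ranks on their untransformed scale, where that rate need not hold. The number of flags therefore cannot be read as an excess over chance. The rank of the Cp190 promoter peak was 172 in replicate 3, against 89 to 100 in the others. The mod(mdg4) body peak of optimal rank 2690 ranked 11259 in replicate 3, against 2389 to 2852 in the others. The optimal peak of rank 5090 beyond the 3′ end of Ibf1 ranked 8670 in replicate 1, against 3563 to 3975 in the others.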

How the results depend on the processing

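The count of 8 genes with a promoter peak was 6 with a 200 bp window (M1BP and su(Hw) lost), beside 13.7% of all protein-coding genes. It was 8 with a 1000 bp window (23.3% of all), with the 5′-most TSS alone (17.7%) or with any overlap of peak and window (21.5%), and 10 in the pooled list (47.8%). It was 5 (20.3% of all) when each summit was given to its nearest TSS within 5000 bp, where Dref, M1BP and su(Hw) were lost because their summits lie nearer to the divergent gene. It was also 5 in the stronger 2605 optimal peaks (11.5%). Counting only genes whose peak the 3 remaining replicates all held gave 6 to 7 with each replicate left out in turn, beside 10.4% to 11.9% of all. The further list had 6 of 24 genes, against 10, in the stronger 2605 peaks (11.5% of all) and 5 when all 4 replicates had to hold the peak (9.90%). Ordering by q-value could not separate the strongest peaks, since 2940 optimal peaks share the highest −log10 q of 3.77, and Cp190, Chro, Dref, M1BP and BEAF-32 then tie at 1470.5. Within 25 bp of the summit CGATA occurred at 1 of the 8 genes (9.98% of promoter summits), and within 100 bp at 3 (33.3%). TGCATA occurred within 100 bp at su(Hw) (13.9%). Anywhere in the optimal peak, an alternative added after seeing the data, TATCGATA occurred at 4 of the 8 genes (9.49% of 2424 promoter peaks), CGATA at 6 (49.9%) and TGCATA at 1 (22.1%). No paired analysis was possible because the 4 replicates form 1 group. Unknown depth leaves differences in rank between replicates unweighted.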

Other observations

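An intron of mod(mdg4) held a call outside the optimal list whose rank differed widely between lists. In replicate 3 the call lay 990 bp into the gene and ranked 2157, within the strongest 5211 calls of that list. In replicate 1 a call 956 bp into the gene ranked 9735, and the pooled call at 997 bp ranked 7454. Replicates 2 and 4 had no call there.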
